A study of Mus musculus with 2 samples.

Results

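The 9 genes described here carry the Hedgehog signal from its ligand to its readout: Shh, Ptch1, Smo, Gli1, Gli2, Gli3, Hhip, Boc and Cdon. They were taken by symbol from the gene list shared by both libraries, and all 9 were found among its 28692 genes. The cells came from retinas of heterozygous LHX4::GFP mice, strain Tg(Lhx4::EGFP)KN199Gsat/Mmucd, at E14.5 (embryonic day), in which a bacterial artificial chromosome transgene places GFP under the regulatory sequences of Lhx4, a gene of early cone photoreceptors. Retinas of 2 litters were pooled, dissociated and sorted into GFP+ cells, labelled as cone photoreceptors, and GFP− cells, the rest of the retina. Each sort gate gave 1 droplet library, 3728 GFP+ and 4444 GFP− cells after filtering, and both gates share genotype, age and animals. No treatment was given and no wild-type control enters the comparison.

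In the Hedgehog pathway a secreted ligand such as SHH binds PTCH1, a receptor that otherwise holds the membrane protein SMO inactive. Released SMO turns the GLI transcription factors toward activation, with GLI2 the main activator and GLI3 mostly a repressor in the absence of ligand. GLI1, PTCH1 and HHIP are themselves products of target genes, so their transcripts are commonly used as a readout of the response, and PTCH1 and HHIP also hold ligand back. BOC and CDON are cell-surface co-receptors. In the developing retina retinal ganglion cells (RGCs) are the known neural source of SHH, and the dividing progenitors around them are known to respond to it.

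The depth of the libraries differed. A GFP+ cell held a median of 3906.5 UMIs (unique molecular identifiers, each standing for 1 captured transcript) and a GFP− cell 9937.5. Levels are therefore given as CPM, the summed UMIs of a gene for every 1000000 UMIs of all genes in the same cells, with a 95% exact Poisson interval, and shares of cells with a 95% exact Clopper-Pearson interval. These intervals cover counting error only: with 1 library per gate there is no replicate, and no p-value is given. A gene was counted as higher where its CPM ratio was at least 2 and both populations together held at least 10 UMIs, and a sum of 0 was set to 3 UMIs. In this 3′ assay CPM was compared within a gene. Where UMIs of Ptch1 or Hhip are given per Gli1 UMI, only the change of that ratio between groups is read. In summed cells, fewer cells with a transcript and fewer transcripts per cell cannot be told apart. The sort labels held in their defining genes: Lhx4 reached 137 CPM in the GFP+ and 1.15 CPM in the GFP− library, and 3637 of the 3728 GFP+ cells reached the photoreceptor class defined by Crx, Gngt2, Gnb3 and Pdc. Both libraries shared 20 cell barcodes, and leaving these out changed none of the counts of members given below.

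GFP− cells were grouped by UMIs of marker genes, none of them a Hedgehog gene. Progenitors (by a list that includes Sfrp2 and Fgf15) numbered 2052, of which 1064 carried at least 5 UMIs of mitotic transcripts such as Top2a and Mki67. Neurogenic cells (Atoh7, Neurog2, Olig2) numbered 714. RGCs (Pou4f factors, Rbpms, Sncg, Nefl, Nefm) were divided by their transcripts for neurofilaments and other mature products into 182 newborn and 710 differentiated cells, with fewer than 5 or at least 5 such neurite UMIs. A further 302 cells were amacrine or horizontal, 123 were photoreceptors that the gate had left GFP−, 13 mixed 2 neuronal classes, 240 reached a non-neural list and 108 reached no class. The non-neural group is weak: 228 of its cells entered by the endothelial list, which holds Kdr, and a Kdr UMI was also found in 36.0% of progenitors. Of the 240 cells, 144 also reached the progenitor class.

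Shh transcripts lay mainly in the differentiated RGCs. All 40 Shh UMIs lay in the GFP− library, in 35 cells, and 30 of the 40 (75.0%) lay in differentiated RGCs. These made up 16.0% of GFP− cells and held 22.1% of all GFP− UMIs. The level in differentiated RGCs was 2.90 CPM (1.95 to 4.14). Shh was not detected in neurogenic cells, newborn RGCs, amacrine or horizontal cells, GFP− photoreceptors or progenitors without mitotic transcripts. For these groups, in that order, the upper exact Poisson bounds were 0.548 CPM, 1.91 CPM, 1.66 CPM, 4.62 CPM and 0.417 CPM. Only the GFP− photoreceptors were thus too few to place below the differentiated RGCs. In the 3637 GFP+ photoreceptors, 0 Shh UMIs among 15390376 gave an upper bound of 0.240 CPM. Of the 10 UMIs outside differentiated RGCs, 4 lay in progenitors, 5 in cells of no class and 1 in the non-neural group.

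Among progenitors 4 cells carried 1 Shh UMI each, all 4 with mitotic transcripts, a level of 0.189 CPM (0.0515 to 0.484). The level in differentiated RGCs was 15.3-fold higher (5.40 to 59.9). The share of cells with a Shh UMI was 3.52% (2.29 to 5.15) of differentiated RGCs at a median depth of 14098.5 UMIs, and 0.195% of progenitors at 9888 UMIs. After each cell was thinned to 3200 UMIs the shares were 1.13% and 0.147%. In GFP+ photoreceptors, which should lack the ligand, 0 of 3637 cells held a UMI at a median depth of 3891. The upper exact Clopper-Pearson bound on that share was 0.101%.

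Within RGCs, nearly all Shh UMIs lay in cells with plentiful neurite transcripts. No Shh UMI was found in the 182 cells with 0 to 4 neurite UMIs (upper 95% bound 1.91 CPM) or in the 58 cells with 5 to 19 (5.43 CPM), and the latter were too few to place below the richer cells. The level was 2.20 CPM (0.454 to 6.43) in the 107 cells with 20 to 49, from 3 UMIs of 1 cell, and 3.25 CPM (2.14 to 4.73) in the 545 cells with 50 or more. No differentiated RGC with a Shh UMI had fewer than 47 neurite UMIs, and their median was 143. Such counts were also the norm of the class, with 50 or more in 545 of its 710 cells. All 25 cells with a Shh UMI carried Isl1, a homeobox gene of RGCs, but so did 99.1% of the differentiated RGCs without a Shh UMI. The ligand was sparse in each cell: 31 of the 35 cells held 1 UMI, and the highest held 3. Under an upper limit of 3500 genes per cell, which the study's own filter set, 493 of the 710 differentiated RGCs and 24 of the 35 Shh cells fall out. The level in the differentiated RGCs that remain was 1.22 CPM, and too few Shh UMIs were left for the comparison with progenitors.

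**Figure D1:**
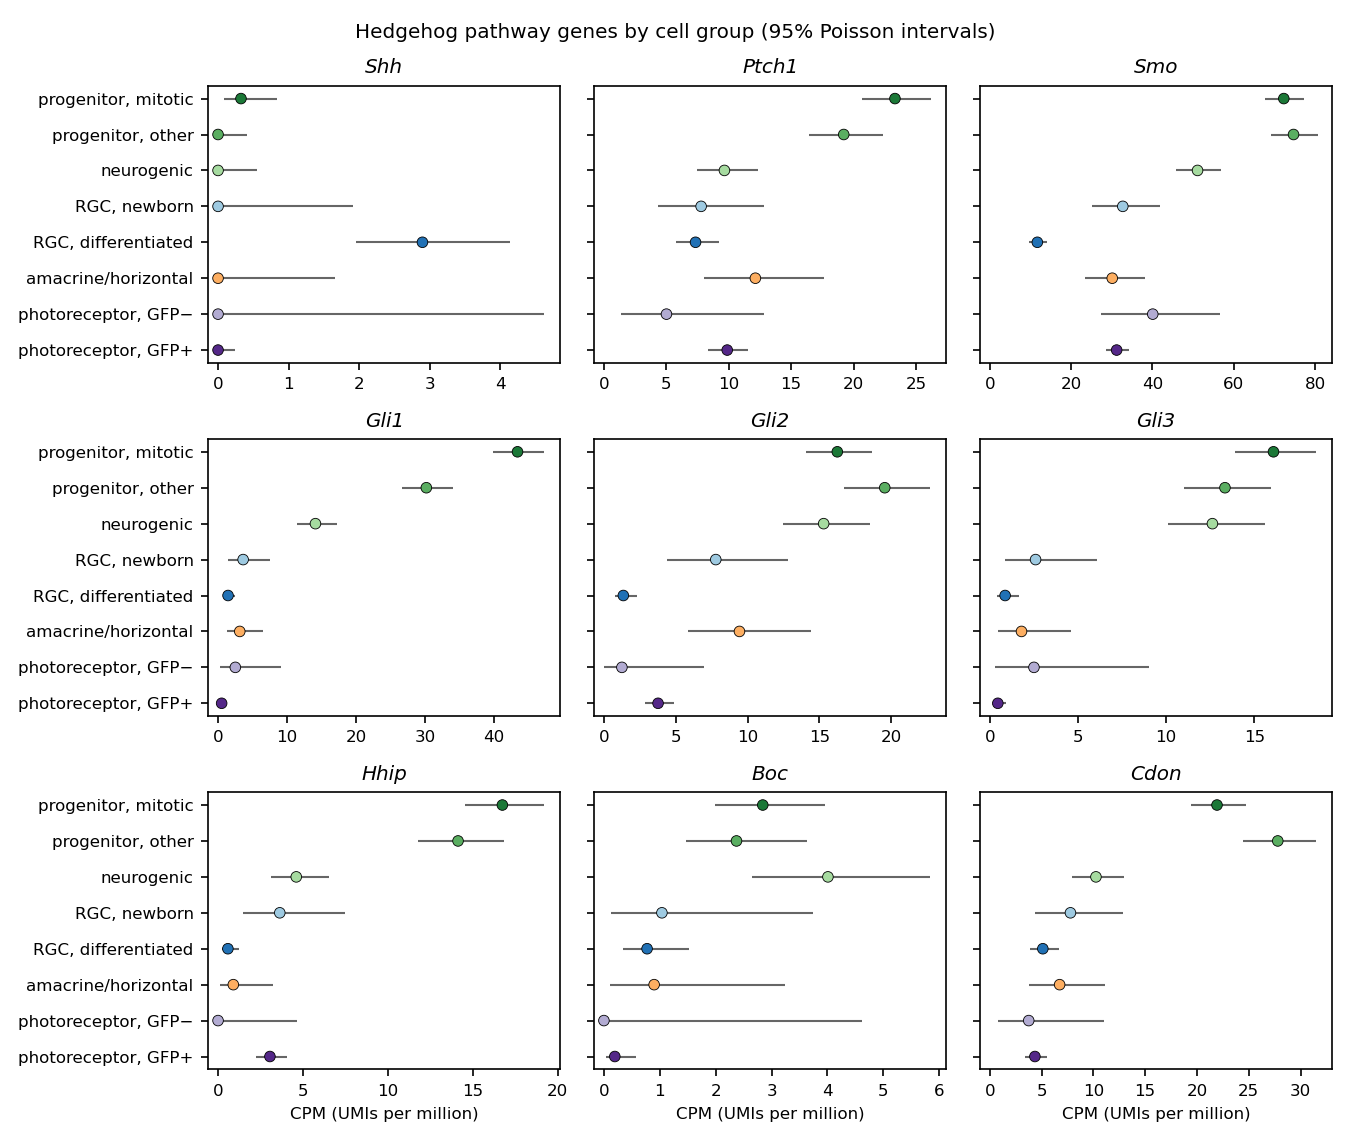
CPM of each Hedgehog pathway gene (horizontal axis, linear, its own scale in each panel) in 7 GFP− cell groups and in GFP+ photoreceptors (rows), as summed UMIs with 95% exact Poisson intervals. Shh stands out in differentiated RGCs at 2.90 CPM, while Ptch1, Smo, Gli1, Gli2, Gli3, Hhip and Cdon have their highest values in the 2 progenitor groups.

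Gli1, the target gene most often read as a sign of active Hedgehog signalling, had the opposite distribution. Of its 993 GFP− UMIs 80.7% lay in progenitors, which made up 46.2% of GFP− cells and held 45.2% of all GFP− UMIs. Its level was 43.4 CPM (39.8 to 47.2) in progenitors with mitotic transcripts and 30.2 CPM (26.7 to 34.0) in the others. It was 14.1 CPM (11.4 to 17.2) in neurogenic cells, 3.63 CPM (1.46 to 7.49) in newborn RGCs and 1.45 CPM (0.811 to 2.39) in differentiated RGCs. Amacrine or horizontal cells had 3.15 CPM (1.26 to 6.48), GFP− photoreceptors 2.50 CPM (0.303 to 9.05) and GFP+ photoreceptors 0.520 CPM (0.224 to 1.02). Ordered by level, each of the first 3 groups stood above the next beyond counting error, as did differentiated RGCs above GFP+ photoreceptors. Among newborn RGCs, amacrine or horizontal cells, GFP− photoreceptors and differentiated RGCs, no neighbours in that order differed beyond counting error. A Gli1 UMI was found in 30.4% of progenitors and in 0.192% of GFP+ photoreceptors, at median depths of 9888 and 3891 UMIs. In cells thinned to 3200 UMIs the shares were 10.7% and 0, the latter of 3070 cells.

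Ptch1, which encodes the SHH receptor, was highest in the same cells but was also found in every neuronal group. The level was 23.3 CPM (20.7 to 26.2) in progenitors with mitotic transcripts and 19.2 CPM (16.4 to 22.3) in the others. Amacrine or horizontal cells had 12.1 CPM (7.99 to 17.7), GFP+ photoreceptors 9.88 CPM (8.37 to 11.6), neurogenic cells 9.65 CPM (7.45 to 12.3), newborn RGCs 7.79 CPM (4.36 to 12.8) and differentiated RGCs 7.34 CPM (5.78 to 9.18). GFP− photoreceptors, with 4 UMIs, had 5.01 CPM (1.36 to 12.8). Below the progenitors no neighbours in this order differed beyond counting error. Among differentiated RGCs, none of the 25 cells with a Shh UMI held a Ptch1 UMI, with an upper 95% Clopper-Pearson bound of 13.7%, beside 10.1% (7.92 to 12.6) of the 685 cells without one. Of the 5 cells of no class that carried Shh, 3 held a Ptch1 UMI, so that no difference is drawn from these counts. A Gli1 UMI was found in 3 of the 25 differentiated RGCs with Shh, beside 13 (1.83%) of all 710, these 3 included. The comparison rests on 3 cells and was not tested.

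The balance of the receptor against Gli1 changed from group to group. Progenitors held 0.571 Ptch1 UMIs for each Gli1 UMI (0.507 to 0.641), and neurogenic cells 0.684 (0.491 to 0.948). Newborn RGCs held 2.14 (0.822 to 6.21), amacrine or horizontal cells 3.86 (1.64 to 10.5) and differentiated RGCs 5.07 (2.89 to 9.49). GFP+ photoreceptors held 19 (9.40 to 44.8). Both genes belong to the usual target set. The intervals of newborn RGCs, differentiated RGCs, amacrine or horizontal cells and GFP+ photoreceptors lay wholly above that of progenitors. Those of neurogenic cells and of GFP− photoreceptors (0.287 to 22.1) overlapped it.

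**Figure D2:**
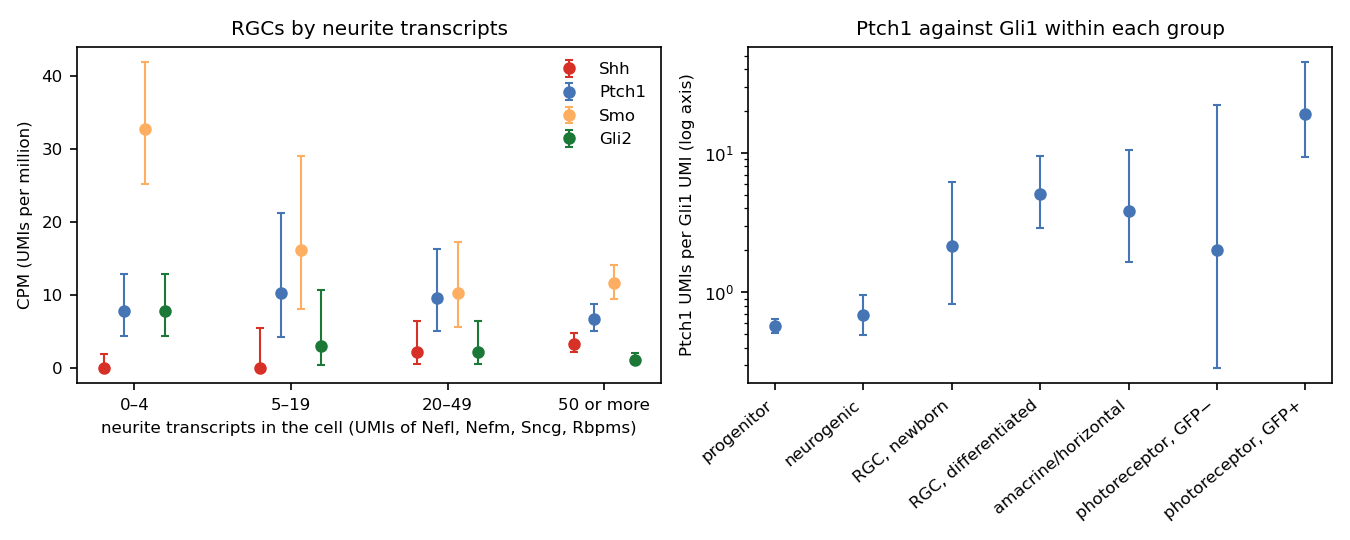
Left, CPM of Shh, Ptch1, Smo and Gli2 (vertical axis, linear) in RGCs binned by their neurite transcripts, with 95% exact Poisson intervals. Right, Ptch1 UMIs per Gli1 UMI (log axis) in each group with 95% exact intervals: 0.571 in progenitors, 5.07 in differentiated RGCs and 19 in GFP+ photoreceptors.

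Hhip, which encodes a membrane-bound protein that captures Hedgehog ligand, resembled Gli1 more than Ptch1 within the GFP− library. Its level was 16.7 CPM (14.53 to 19.18) in progenitors with mitotic transcripts and 14.1 CPM (11.8 to 16.8) in the others. It was 4.60 CPM (3.13 to 6.53) in neurogenic cells, 3.63 CPM (1.46 to 7.49) in newborn RGCs, 0.899 CPM (0.109 to 3.25) in amacrine or horizontal cells and 0.579 CPM (0.213 to 1.26) in differentiated RGCs. Progenitors held 82.3% of its 402 GFP− UMIs. GFP+ photoreceptors had 3.05 CPM (2.24 to 4.06), and there its ratio to Gli1 was 5.88 UMIs (2.75 to 14.4) against 0.413 (0.362 to 0.470) in progenitors. Hhip was thus low but present in cones that had almost no Gli1.

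Smo, the transducer that PTCH1 restrains, was found in quantity in every group. Its level was 72.3 CPM (67.6 to 77.2) in progenitors with mitotic transcripts, 74.7 CPM (69.1 to 80.6) in the others and 51.1 CPM (45.8 to 56.8) in neurogenic cells. GFP− photoreceptors had 40.1 CPM (27.4 to 56.6), newborn RGCs 32.7 CPM (25.1 to 41.8), GFP+ photoreceptors 31.2 CPM (28.5 to 34.1) and amacrine or horizontal cells 30.1 CPM (23.3 to 38.2). Differentiated RGCs, at 11.7 CPM (9.69 to 14.0), lay below all of them. From the highest group to the lowest Smo spanned 6.39-fold (5.26 to 7.83), where Gli1 spanned 83.5-fold (42.0 to 194) and Ptch1 4.66-fold (1.80 to 17.2).

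The promoters of Hhip and Smo are shown because the share of UMIs in progenitors was close to that of Gli1 for the first gene, while the second was found in quantity in every group. Each line gives the 250 bases before the transcription start, 5′ to 3′ on the gene's own strand, with the GC box GGGCGG, read on either strand, in capitals. Hhip lies on the minus strand and its window is chr8:80058009-80058258, while Smo lies on the plus strand with the window chr6:29735247-29735496, both in RefSeq's GRCm38.p6.
Hhip: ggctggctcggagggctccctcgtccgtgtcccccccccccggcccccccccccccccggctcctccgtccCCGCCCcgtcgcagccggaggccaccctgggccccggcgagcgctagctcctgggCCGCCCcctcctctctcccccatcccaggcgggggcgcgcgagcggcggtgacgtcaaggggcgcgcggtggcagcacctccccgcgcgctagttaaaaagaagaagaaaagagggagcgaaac
Smo: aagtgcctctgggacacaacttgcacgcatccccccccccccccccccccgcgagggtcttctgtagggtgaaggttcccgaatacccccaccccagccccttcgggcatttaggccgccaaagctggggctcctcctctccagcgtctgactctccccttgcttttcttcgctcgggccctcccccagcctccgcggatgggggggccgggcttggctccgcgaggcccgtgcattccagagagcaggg
The Hhip window held 2 GC boxes and 76.0% G or C, and the Smo window 0 GC boxes and 68.4% G or C. Among the 32851 RefSeq promoters of that collection, 32.7% held a GC box in these 250 bases. The GLI-binding sequence GACCACCCA was searched on both strands in the 300 bases around the start listed there for each of 6 members. These were Hhip, Smo, Ptch1, Gli2, Gli3 and Cdon. None held it, exactly or with 1 mismatch, beside 0.253% and 6.74% of all promoters. That says only that these letters are not in these windows. The Ptch1 window (chr13:63565686-63565985) lay within the gene (chr13:63508328-63573598, minus strand), away from its 5′ end. The Cdon window (chr9:35451826-35452125) likewise lay within its gene (chr9:35421128-35507652, plus strand). So did the Gli3 window (chr13:15463473-15463772) within its gene (chr13:15463235-15730026, plus strand). The outermost starts of Ptch1, Cdon and Gli3 were therefore not searched. Shh, Gli1 and Boc have no entry in that collection.

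The GLI factors that receive the signal differed less than its readout between progenitors and the neurogenic cells taken as a whole. Gli2, the main activator, had 16.2 CPM (14.1 to 18.7) in progenitors with mitotic transcripts, 19.5 CPM (16.7 to 22.7) in the others and 15.3 CPM (12.5 to 18.6) in neurogenic cells. It was still at 9.44 CPM (5.84 to 14.4) in amacrine or horizontal cells and 7.79 CPM (4.36 to 12.8) in newborn RGCs. It was at 3.77 CPM (2.86 to 4.87) in GFP+ photoreceptors, 1.35 CPM (0.739 to 2.27) in differentiated RGCs and 1.25 CPM (0.0317 to 6.98) in GFP− photoreceptors. Gli3 had 16.1 CPM (13.9 to 18.5), 13.3 CPM (11.0 to 16.0) and 12.6 CPM (10.1 to 15.6) in the first 3 of these groups. It then dropped to between 0.455 CPM and 2.60 CPM in every other neuronal group. In the 306 neurogenic cells without progenitor markers Gli2 was at 10.9 CPM (7.26 to 15.8) and Gli3 at 7.41 CPM (4.46 to 11.6), so that the closeness to progenitors did not hold in them.

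Of the co-receptors, Cdon was at 27.8 CPM (24.4 to 31.5) in progenitors without and 21.9 CPM (19.4 to 24.7) in progenitors with mitotic transcripts. Neurogenic cells had 10.2 CPM (7.97 to 13.0), and the other neuronal groups lay between 3.76 CPM and 7.79 CPM. Boc was sparse, with 98 GFP− and 7 GFP+ UMIs. Its highest value was in neurogenic cells, at 4.01 CPM (2.64 to 5.83), beside 2.65 CPM (2.00 to 3.44) in progenitors. No neighbours in the order of Boc levels differed beyond counting error, though groups farther apart did. Differentiated RGCs had 0.772 CPM (0.333 to 1.52) and GFP+ photoreceptors 0.195 CPM (0.0402 to 0.570), with intervals below that of neurogenic cells. BOC is known as the SHH receptor of RGC axons that stay on their own side of the brain, and Zic2 marks those RGCs. A Boc UMI was found in 1 of 100 RGCs with a Zic2 UMI and in 7 of 792 without, so that no difference was detectable at this depth.

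**Figure D3:**
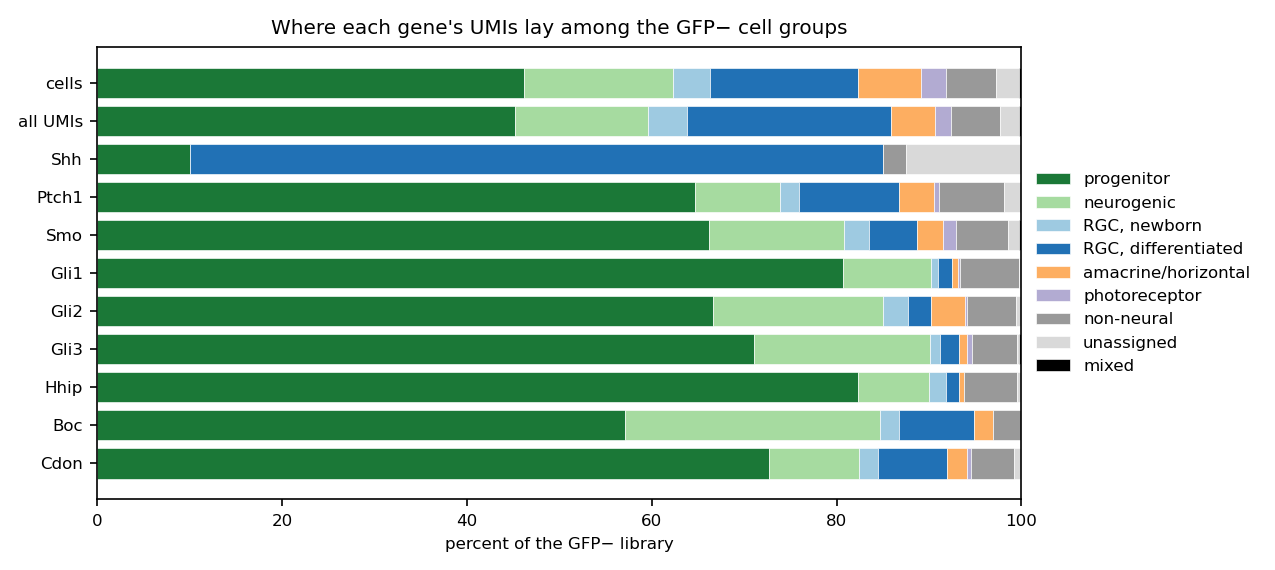
Share of the GFP− library (horizontal axis, percent) in each cell group, for cells, for all UMIs and for the UMIs of each Hedgehog pathway gene. Differentiated RGCs hold 75.0% of Shh UMIs, and progenitors hold 80.7% of Gli1 and 82.3% of Hhip UMIs.

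Between the sort gates, 7 of the 9 members were at least 2-fold higher in GFP− cells, beside 16.7% of the 15735 genes tested, and 0 were higher in GFP+ cells, beside 22% of all genes. Gli1 reached 21.2 CPM in the GFP− library and 1.12 CPM in the other, 18.9-fold higher (11.9 to 32.0), and Gli3 was 12.7-fold higher (7.19 to 24.8). Of the 18 GFP+ Gli1 UMIs, 10 lay in the 91 GFP+ cells that did not reach the photoreceptor class. Boc was 4.79-fold (2.24 to 12.2), Cdon 3.33-fold (2.61 to 4.30), Gli2 2.90-fold (2.25 to 3.81) and Hhip 2.65-fold (1.979 to 3.604) higher in GFP− cells. With its 0 GFP+ UMIs set to 3, Shh was 4.56-fold higher, and its exact interval starts at 3.54-fold. Ptch1 (1.53-fold, 1.29 to 1.83) and Smo (1.57-fold, 1.42 to 1.73) stayed under the 2-fold line.

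The median ratio was 3.33 over the 9 members and 0.832 over all genes. TMM scaling factors moved all log2 ratios of the gates by 0.32, upward in GFP− cells, which brought Ptch1 to 0.93 and Smo to 0.97 on the log2 scale and left the count at 7.

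From progenitors to differentiated RGCs, 8 of 9 members were at least 2-fold higher in progenitors, beside 22.4% of 14264 genes, and Shh alone was higher in differentiated RGCs, beside 19.9%. Hhip was 27.0-fold (12.3 to 74.1), Gli1 26.1-fold (15.8 to 46.9), Gli3 17.2-fold (8.94 to 37.9) and Gli2 13.0-fold (7.67 to 24.1) higher in progenitors. Smo was 6.27-fold (5.21 to 7.61), Cdon 4.77-fold (3.59 to 6.45), Boc 3.43-fold (1.62 to 8.32) and Ptch1 2.94-fold (2.304 to 3.803) higher. The GLI factors and Hhip thus differed more than the receptor. The median ratio was 6.27 over the 9 members and 1.06 over all genes.

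The first step out of the progenitor state divided the members. In neurogenic cells 4 of the 8 members with enough UMIs were at least 2-fold lower than in progenitors, beside 8.99% of 13786 genes, and 0 were higher, beside 5.61%. These 4 were Hhip, at 0.294 of the progenitor level (0.197 to 0.426), Gli1, at 0.373 (0.298 to 0.461), Cdon, at 0.420 (0.322 to 0.541), and Ptch1, at 0.447 (0.339 to 0.581). The 3 target genes among the members, Gli1, Hhip and Ptch1, were all in this set. Smo was at 0.697 (0.618 to 0.784), Gli2 at 0.868 (0.691 to 1.08) and Gli3 at 0.845 (0.657 to 1.08), while Boc was at 1.52 (0.920 to 2.44).

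Neurogenic cells that no longer reached the progenitor class carried the difference further. This division was chosen after the values were seen. The 306 such cells had 3.901 CPM of Gli1 (1.87 to 7.17), where the 408 neurogenic cells that still held progenitor markers had 20.4 CPM (16.3 to 25.2), a ratio of 0.191 (0.0886 to 0.369). Hhip was at 1.56 CPM against 6.47 CPM, a ratio of 0.241 (0.0613 to 0.692), and Cdon at 5.07 CPM against 13.4 CPM, a ratio of 0.378 (0.189 to 0.699). Ptch1 was at 8.19 CPM against 10.6 CPM, a ratio of 0.777 (0.439 to 1.33). Gli2 was at 10.9 CPM against 18.0 CPM, a ratio of 0.607 (0.379 to 0.949), and Gli3 at 7.41 CPM against 15.8 CPM, a ratio of 0.468 (0.265 to 0.790), so that both GLI factors were lower together with Gli1. Smo was level at 51.1 CPM in both, with a ratio of 1.0006 (0.799 to 1.25). Boc, at 3.901 CPM and 4.076 CPM, did not differ beyond counting error (0.392 to 2.21). Neurogenic cells with an Olig2 UMI had less Gli2 (9.37 CPM against 17.8 CPM, a ratio of 0.525, 0.301 to 0.871) and less Cdon (0.539, 0.270 to 0.997) than those without. Gli1 (0.659, 0.385 to 1.08), Gli3 (0.668, 0.379 to 1.13) and Hhip (0.446, 0.134 to 1.18) were also under 1 there, with intervals that include 1.

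Between newborn and differentiated RGCs, 5 of 9 members were at least 2-fold higher in newborn cells, beside 10.4% of 12661 genes, and 0 were higher in differentiated cells, beside 13.5%. Smo was 2.80-fold (2.03 to 3.83), Gli2 5.76-fold (2.59 to 12.9) and Hhip 6.27-fold (1.80 to 22.6) higher. The remaining 2, Gli1 (2.51-fold, 0.865 to 6.54) and Gli3 (2.99-fold, 0.786 to 9.92), rested on 7 and 5 newborn UMIs with intervals that reach below 1. Ptch1 was at 1.06-fold (0.566 to 1.86). Shh had 0 UMIs in newborn and 30 in differentiated RGCs. With the 0 set to 3, Shh was 1.86-fold lower in newborn cells, under the 2-fold line. The exact interval starts at 1.42-fold, and the comparison rests on 182 newborn cells. The count of 5 fell to 2, Smo and Gli2, where the groups were set on cells thinned to 3200 UMIs.

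**Figure D4:**
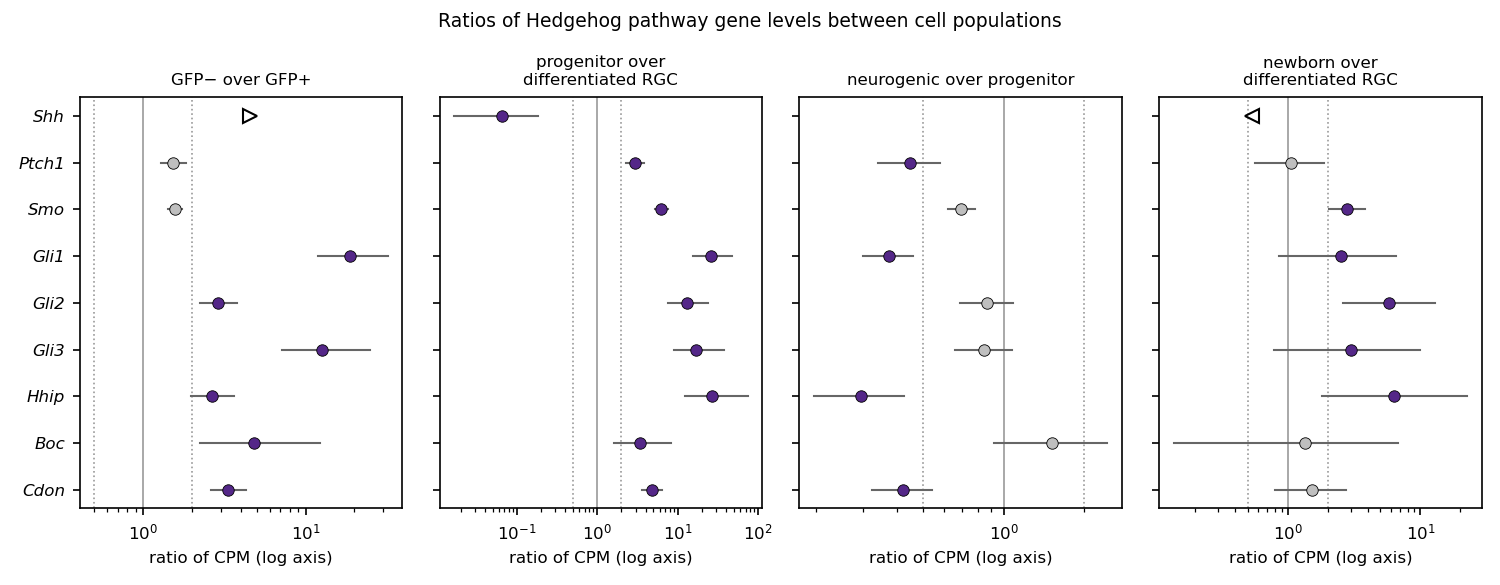
Ratio of CPM (log axis, its own range in each panel) for each member in 4 comparisons, with 95% exact intervals. Filled purple points are at least 2-fold apart, grey points are not, open triangles are bounds from a sum of 0, dotted lines mark 2-fold, and members with under 10 UMIs are left blank. Gli1 and Hhip lie farthest from 1 in favour of progenitors.

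Among progenitors, 8 of the 9 members had enough UMIs in each of the next comparisons. With mitotic transcripts against without, 0 of the 8 were at least 2-fold apart in either direction, beside 3.74% and 3.72% of all genes. Gli1 was nonetheless 1.44-fold higher with mitotic transcripts (1.24 to 1.67), and Cdon was at 0.789 (0.661 to 0.942). Dorsal progenitors, marked by Tbx5, Tbx3 or Aldh1a1, numbered 517, and ventral ones, marked by Vax2, Vax1 or Aldh1a3, numbered 781. Between them 0 of the 8 were also at least 2-fold apart, beside 2.41% and 2.29% of all genes. With shares of all genes this low, 0 of 8 does not set the members apart. Gli1 was 39.5 CPM dorsally and 36.7 CPM ventrally, a ratio of 1.08 (0.897 to 1.29), and Ptch1 was 24.1 CPM and 18.9 CPM, a ratio of 1.27 (0.999 to 1.62). The 43 progenitors with a UMI of Pax2, a gene of the optic disc and stalk, had 18.2 CPM of Gli1 (7.84 to 35.8) against 38.3 CPM in the rest, a ratio of 0.475 (0.2042 to 0.93998) that rests on 8 UMIs.

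Within progenitors, the target genes were weakly found together. A Ptch1 UMI was present in 24.0% (20.7 to 27.6) of the 624 cells with a Gli1 UMI and in 16.1% (14.2 to 18.1) of the 1428 without. For Hhip the shares were 17.3% (14.4 to 20.5) and 12.3% (10.6 to 14.1). The cells with a Gli1 UMI were also deeper, with a median of 10482.5 against 9669 UMIs. After thinning to 3200 UMIs the shares were 8.68% (5.30 to 13.2) and 6.30% (5.23 to 7.52) for Ptch1, and 5.48% (2.86 to 9.38) and 4.99% (4.04 to 6.09) for Hhip, with overlapping intervals. Smo, Gli2, Gli3, Boc and Cdon did not differ between these cells beyond counting error at full depth.

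The wider pathway was read from 4 lists. Ligands and their release held 8 genes. Disp2, a relative of the gene for the ligand-releasing protein DISP1, was 48.0-fold (18.1 to 180) higher in differentiated RGCs than in progenitors, at 9.08 CPM and 0.189 CPM. Disp1 itself did not differ beyond counting error, at 3.09 CPM in differentiated RGCs and 3.73 CPM in progenitors. Its ratio of progenitors to differentiated RGCs was 1.21 (0.792 to 1.88). Of the 5 ligand and release genes tested in that comparison 2 were higher in differentiated RGCs, Disp2 and Scube1, and 1 in progenitors, Scube3, which encodes a secreted protein of the family that helps ligand leave the cell, beside 19.9% and 22.4% of all genes. Disp2 was also 8.74-fold (2.35 to 73.3) higher in differentiated than in newborn RGCs. Between the gates 1 of 7 tested was higher in GFP− cells (Scube3) and 3 in GFP+ cells (Disp1, Scube1 and Ihh), beside 16.7% and 22% of all genes, with a median ratio of 0.885 beside 0.832. The remaining ligands were close to absent from the GFP− library, with 15 UMIs of Ihh and 4 of Dhh. The GFP+ library held 14 Ihh UMIs, a CPM 2.73-fold higher (1.22 to 6.06).

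Among the further receptor and co-receptor genes, the co-receptor gene Gas1 was 13.1-fold (9.33 to 19.1) higher in progenitors than in differentiated RGCs, yet did not separate the gates, at 27.3 CPM on the GFP− side and 30.9 CPM on the GFP+ side. Lrp2 was also higher in progenitors than in differentiated RGCs, 8.81-fold (2.27 to 75.5), from 36 and 2 UMIs. In neurogenic cells, also with 2 UMIs, it was at 0.175 of the progenitor level (0.0204 to 0.678).

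Transduction held 15 genes, 14 of which were found. In progenitors against differentiated RGCs 3 of 14 were higher, the ciliary genes Evc and Iqce and the kinesin gene Kif7, and 1 was lower, Gsk3b. These counts are near or below the 22.4% and 19.9% of all genes. The median of the list was 1.02, beside 1.06 over all genes. Sufu, whose product holds GLI proteins inactive, was 1.51-fold (1.16 to 1.97) higher in progenitors. Evc was 9.40-fold (5.0003 to 19.91) higher in progenitors and 6.19-fold (3.62 to 11.5) higher in GFP− than in GFP+ cells, where 3 of the 14 were higher in GFP− cells (Evc, Evc2 and Gpr161) and 1 in GFP+ cells (Kif7), beside 16.7% and 22% of all genes. Neurogenic cells had 1 of 14 higher than progenitors (Stk36) and 1 lower (Evc), near the 5.61% and 8.99% of all genes. Newborn RGCs had 1 of 13 higher than differentiated RGCs (Evc) and 4 lower (Gpr161, Evc2, Prkaca and Gsk3b), beside 10.4% and 13.5% of all genes. There Evc (3.23-fold, 0.963 to 9.79) rested on 6 newborn UMIs, with an interval that reaches below 1.

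The target list held Ccnd1, Ccnd2, Mycn and Hes1, which other signals also control. Ccnd1, a cyclin of cycling progenitors, was 19.6-fold (18.5 to 20.8), Ccnd2 27.4-fold (15.9 to 51.7) and Hes1, a Notch effector, 34.2-fold (29.51 to 39.96) higher in progenitors than in differentiated RGCs. Mycn was 2.19-fold (2.04 to 2.36) higher in differentiated RGCs. In neurogenic cells 2 of the 4 were at least 2-fold lower than in progenitors, beside 8.99% of all genes, Hes1 at 0.328 (0.309 to 0.347) and Ccnd2 at 0.393 (0.312 to 0.489), while Ccnd1 was at 0.665 and Mycn at 0.866.

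Across 10 populations (the GFP− groups of at least 50 cells and GFP+ photoreceptors) the genes most like Shh in log2(CPM + 10) were Fxyd7, Dbpht2, Caln1, Chl1 and Gm32736, with Pearson r from 0.986 to 0.996 among 13297 genes. With 40 UMIs of Shh this order rests largely on differentiated RGCs and unassigned cells. Those most like Gli1 were Fam81a, Nr2e1, Yap1, Etv5 and Atoh8, with r from 0.990 to 0.994 among 13296 genes. Of the members, Gli3 (r = 0.953), Hhip (r = 0.942) and Cdon (r = 0.937) followed Gli1 more closely than Gli2 (r = 0.853), Smo (r = 0.852), Ptch1 (r = 0.851) and Boc (r = 0.735). Many other genes followed Gli1 more closely still. Among the 13296 genes Gli3 ranked 121, Hhip 192, Cdon 223, Gli2 804, Smo 811, Ptch1 816 and Boc 1596. The populations share their libraries and differ in depth, and these values describe the 10 points.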

How the data were processed

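The GFP+ and GFP− libraries were made with 10x Chromium 3′ v2 chemistry, and the authors ran Cell Ranger 2.1.1 on the mm10 (GRCm38) genome. The deposited values are whole-number UMI counts per gene and cell barcode (16010591 and 46778924 UMIs), and the authors' further filters are not in them. Barcodes needed at least 250 genes and less than 0.25 of their UMIs from mitochondrial genes, without the study's upper limit of 3500 genes, which is an alternative. Cells were classed by at least 3 UMIs of a marker list, in the order non-neural, mixed, neuronal, neurogenic and progenitor. UMIs were summed per class, with exact Poisson, Clopper-Pearson and conditional binomial intervals (scipy 1.17.1), all at 95% and for counting error only. Scrublet (scanpy 1.11.5) called 4 GFP+ and 45 GFP− doublets, which were kept. It found few in the GFP+ library (0.107%), where it cannot be taken to have worked. TMM factors came from edgeR 4.0.16. The scripts were tested on simulated data. The genes named are the 9 members, 4 pathway lists and the 5 genes most like Shh and Gli1 with at least 50 UMIs. The members, lists and markers were chosen with earlier results of these data known. The transduction list names 1 gene by both its symbols, Grk2 and Adrbk1, and only the latter was found. Some listed genes are not reported here. Alternatives are given in the closing section.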

Additional observations from a re-analysis of the deposited data

Results flagged for a closer look

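Shh appeared in cells that entered no comparison between groups. Of the 108 GFP− cells that reached no class, 5 carried 1 Shh UMI each, which gives 5 UMIs and 5.26 CPM (1.71 to 12.3), against 0 Shh UMIs in the GFP+ library. These 5 cells had at least 74 neurite UMIs and an Isl1 UMI each but no UMI of Pou4f1, Pou4f2 or Pou4f3, which the RGC class required. The 43 unassigned cells with 5 or more neurite UMIs held all 5, at 9.74 CPM (3.16 to 22.7), with 15.6 CPM of Ptch1 (6.73 to 30.7) and 1.95 CPM of Gli1. The 65 others held 0. Without the Pou4f requirement 87.5% of Shh UMIs fell in differentiated RGCs.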

How the results depend on the processing

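No paired analysis was possible because each gate has 1 library, which gives 1 pair at most, and no test was made. The limit of 3500 genes, which removes most differentiated RGCs, moved the percent of Shh UMIs in them to 27.3, their Shh level to 1.22 CPM, the percent of Gli1 UMIs in progenitors to 84.8, the members higher in differentiated RGCs than in progenitors to 0 and those higher in newborn than in differentiated RGCs to 2. Groups set on cells thinned to 3200 UMIs gave 40% of Shh UMIs in differentiated RGCs, 89.3% of Gli1 UMIs in progenitors, 2 members higher in newborn and 1 (Ptch1) higher in differentiated RGCs, and 5.91% of genes higher in progenitors without mitotic transcripts. Shh became the 1 member at least 2-fold higher in differentiated than in newborn RGCs with TMM factors, with 2 UMIs reaching a class, with 10 neurite UMIs and without the Pou4f requirement, which also put 87.5% of Shh UMIs in differentiated RGCs. A class threshold of 5 UMIs left 2 members higher in newborn RGCs. The percent of Gli1 UMIs in progenitors was 64.2 with 2 UMIs, 88.6 with 5 UMIs and 86.3 without the non-neural step, the last chosen after seeing the data. Thinning moved the difference in Ptch1 detection between progenitors with and without a Gli1 UMI from 7.93 to 2.37 percentage points, and that of Hhip from 5.05 to 0.490. The causes of these moves were not tested.

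With at least 50 UMIs per gene, 0 members were higher in differentiated RGCs than in progenitors and 1 was higher in newborn RGCs. The genes past 2-fold were then 3.69% up and 5.98% down in neurogenic cells, 6.14% in newborn RGCs, 1.13% in progenitors without mitotic transcripts, 0.611% in dorsal and 0.414% in ventral progenitors. With at least 1 UMI, 1 member (Shh, at 0 and 4 UMIs, through the floor) counted as higher in neurogenic cells, and the genes past 2-fold were 18.4% up in neurogenic cells, 27.4% in newborn RGCs, 8.02% and 11.6% in progenitors with and without mitotic transcripts and 11.0% in dorsal progenitors. Neurogenic cells without progenitor markers, chosen after seeing the data, had 9.67% of genes higher than progenitors. Members higher in GFP− cells numbered 6 (with at most 3500 genes, and with at least 50 UMIs) or 7, 0 were higher in GFP+ cells, and 8 were higher in progenitors than in differentiated RGCs under each alternative run. Leaving out doublets or shared barcodes, using every deposited barcode, averaging over cells, dividing RGCs at 3 neurite UMIs, and 2 or 10 UMIs of the mitotic list moved no count past 1.5 times. Of the values of single members under the alternatives, 523 stayed within the spread set for them and 16 left it. Of the latter only the ratio of Shh in newborn RGCs, with 0 UMIs set to 3, changed sign (with groups set on thinned cells). Depth limits Shh (40 UMIs), Boc (98 UMIs) and the newborn RGCs most.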

Other observations

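The level of Hhip in cones was higher in cells with Slc7a3, a gene for an amino acid transporter, though most Hhip UMIs lay in cells without it. Slc7a3 was chosen after the values were seen. The 177 GFP+ photoreceptors with a Slc7a3 UMI had 21.0 CPM of Hhip (12.0 to 34.1), from 16 UMIs, and the 3460 without had 2.12 CPM (1.44 to 3.01), from 31 UMIs, a ratio of 9.92 (5.07 to 18.7) at median depths of 4015 and 3885 UMIs. Smo went the other way, at 14.451 CPM against 32.1 CPM, a ratio of 0.451 (0.223 to 0.814). Ptch1 did not differ beyond counting error, at 7.88 CPM and 9.98 CPM, and Gli1 was at 0 UMIs in the cells with Slc7a3. Hhip was also lower in GFP+ photoreceptors with a Fabp7 UMI, at 1.73 CPM against 4.14 CPM, a ratio of 0.419 (0.198 to 0.826), while Ptch1 (0.865, 0.616 to 1.21), Smo (1.11, 0.920 to 1.33) and Cdon (0.932, 0.554 to 1.55) did not differ between these cells beyond counting error. Of the 47 Hhip UMIs in GFP+ photoreceptors, 5 lay in the 143 cells that also held a Ptch1 UMI.

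The 240 cells taken as non-neural had 25.5 CPM of Gli1 (19.6 to 32.6) and 20.2 CPM of Ptch1 (15.0 to 26.6). The 144 of them that also reached the progenitor class had 34.8 CPM of Gli1 (26.7 to 44.6) and the other 96 had 1.44 CPM (0.0365 to 8.03), from 1 UMI. Ptch1 was at 23.0 CPM (16.5 to 31.2) and 13.0 CPM (5.93 to 24.6) in them, with overlapping intervals.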
